A study of Petromyzon marinus with 21 samples.

Results

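The 24 probes described here are the target probes of a sea lamprey expression panel that carry no gene annotation. They were chosen by 2 columns of the deposited table, the target class (Endogenous) and the annotation Unknown, and they are 24 of the panel's 43 target probes, beside 19 with a gene name. The labels give whole embryos of Petromyzon marinus, grown in dilute Holfretter's solution at 18 °C, at 6 ages, each with 3 biological samples. The stage names count days since fertilization and run from D1 over D2, D2.5, D3 and D4 to D5. They also give adult testes in 3 technical replicates, which count here as 1 biological sample. No strain, genotype or treatment distinguishes the groups in the labels. Per the labels, the study set out to follow expression across developmental time and in testes.

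The sea lamprey is a jawless vertebrate whose embryonic cells discard part of the germline genome during early development, so that some sequences are kept in germ cells and lost from body cells. Early embryos of animals first use transcripts stored in the egg and later switch on their own genes, and a testis is rich in transcripts of meiosis and sperm formation. What the 24 transcripts encode is not given in the table, no probe sequence was at hand, and the comp identifiers are therefore the only names used. On the nCounter, a barcoded probe is hybridised to each transcript and the barcodes are counted without amplification, 1 lane per sample. The count of a probe also depends on how well that probe hybridises, so an order of probes is an order of counts.

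Lanes of 1 stage stood far apart. Counts over the 24 probes lay between 90 and 10882 in the embryo lanes and between 352443 and 370509 in the testes lanes. Lane background, the mean plus 2 SD of the 8 negative controls, was between 7.78 and 23.2 raw counts in embryos and between 127 and 136 in testes. D2.5 replicate 3 and D3 replicate 3 held many more target counts than the other lanes of their stages, 9961 and 15415 against at most 2558 and 4678. The D4 and D5 lanes with a replicate number held fewer than the 2 lanes of each stage that have none, which are called a and b here without order. Those unnumbered lanes carry other suffixes in their column names, whose meaning is not given. Among the embryo lanes D2 replicate 3 had the fewest counts of EF1A_A, 124, against up to 863 in the others, and the testes lanes had 12 to 22. The column names carry 3 dates with set codes, for D1 to D3, D4 with D5, and testes, which are read here as runs of the instrument. In comparisons of D1 with D5 and of embryos with testes, group and run therefore cannot be told apart. The germline list of 6 probes (Piwi-1, Piwi-2, 3 probes named synaptonemal complex protein 1, and the helicase HFM1) summed to 186 to 530 scaled counts at D1 and to 70.8 to 361 at D3. Of these 6, 4 were above background in at least 2 of 3 lanes at D1 and 3 at D3. The 6 did not move together. From D1 to D3 the means of comp292635_9 (211 to 43.2), Piwi-1 (42.4 to 7.94) and Piwi-2 (57.0 to 13.6) went down. That of HFM1 (1.39 to 37.4) went up. The mean of comp292635 (33.6 to 57.7) went up through D3 replicate 3 alone. Its lanes had 14.6, 17.7 and 141 at D3, against 64.7, 6.41 and 29.7 at D1. comp288706 (9.69 to 10.6) was under background in every lane of both stages. The part of these 6 probes in the results was not tested.

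The unannotated transcripts came into view between D1 and D3. A probe was counted as present at a stage when it exceeded the lane background in at least 2 of 3 lanes, and by that count 2 of the 24 were present at D1 and 9 at D2. The number reached 19 in D2.5 embryos and 21 in D3 embryos, with 20 and 22 in the older stages. The 19 annotated probes numbered 4 and 9 at the first pair of stages, 15 at D2.5 and 16 from D3 on. In testes 23 of the 24 and 19 of the 19 were above background. The first stage of presence was D1 for 2 unannotated probes, D2 for 8, D2.5 for 9, D3 for 2 and D5 for 1, and 2 were present at no embryo stage. For the annotated probes these numbers were 4, 5, 6 and 2 from D1 to D3, with 2 at no stage. Most onsets in both classes thus lay between D1 and D3, with 1 unannotated probe at D5, and the difference between the classes was not tested. The background to exceed also differed between stages, and on the scaled counts used below its mean was lowest at D2.5.

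Presence varied between lanes as well as between stages. At D2 the 3 lanes had 9, 18 and 0 unannotated probes above background, and at D2.5 they had 19, 8 and 22. At D3 they had 14, 21 and 21. At D5 the numbered lane had 6, whereas lanes a and b had 22 each. When presence was required in all 3 lanes, the numbers were 1, 0, 8, 14, 5 and 6 of the 24 probes over the 6 stages, so the stage with most probes in every lane was D3.

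**Figure D1:**
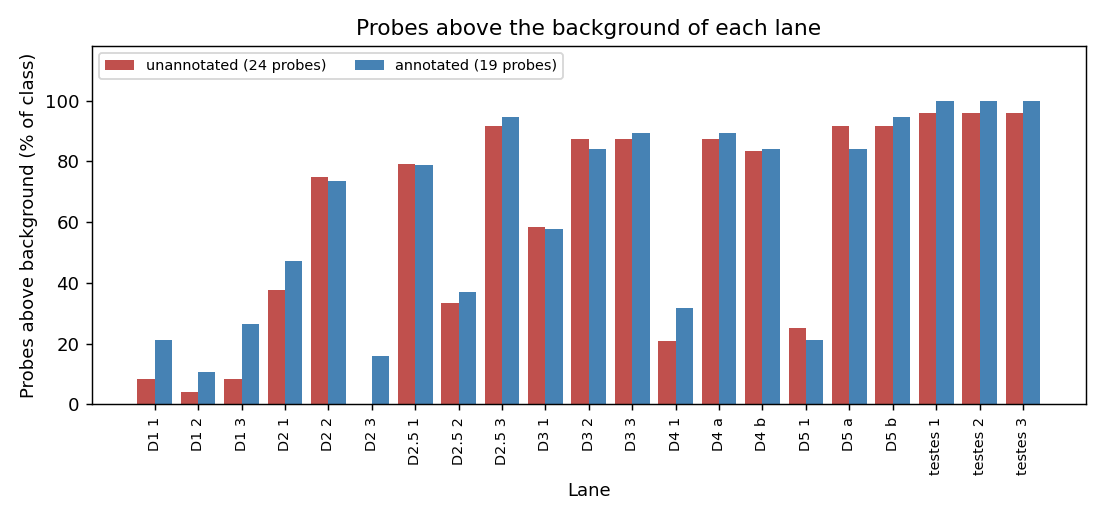
Probes above the background of each lane (y axis, percent of the class) for the 24 unannotated (red) and 19 annotated (blue) target probes, with 1 pair of bars per lane (x axis). Both classes are low in the D1 lanes, in D2 replicate 3 and in the numbered D4 and D5 lanes, and high in D2.5 replicate 3 and in testes.

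At D1, comp292169 was the unannotated transcript seen in every lane. Its scaled counts (raw counts divided by a lane factor from EF1A_A and HCFC-1, with a mean factor of 1) were 47.9, 55.5 and 33.8 at D1, then 18.0, 94.9 and 26.4 at D2. At D3 they were 202, 112 and 1264, and at D5 37.4 in the numbered lane, 674 in lane a and 531 in lane b. All D3 lanes lay above all D1 lanes, while the D2 and D5 ranges overlapped that of D1. comp292169 ranked 4 of the 43 target probes at D1 and between 4 and 7 at the other stages.

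The other probe present at D1 was comp289786, with 25.2, 8.54 and 28.8 scaled counts there, above background in 2 of 3 lanes. At D2 it had 4.91, 12.9 and 4.81, above background in 1 lane, and its rank went from 6 to 30. It was at 27.0, 13.9 and 120 at D3, so the D3 and D1 ranges overlapped. Neither the D3 nor the D5 difference from D1 passed the test (edgeR log2 fold change 1.35, SE 1.28, adjusted p = 0.310, and 1.01, SE 1.27, adjusted p = 0.465). comp279056 ranked next among the unannotated probes at D1, with 8.39, 29.9 and 9.07 scaled counts, all under the lane background, and comp282841 and comp286889 followed with means of 8.73 ± 6.69 and 8.59 ± 3.72 (SD, n = 3), also under it in every lane.

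Most of the other probes were first present at D2 or D2.5. The mean background was 22.9 scaled counts at D1, 18.8 at D2, 8.72 at D2.5 and 16.8 at D3, so the bar for presence was lowest at D2.5. How far this set the onsets was not tested. The 8 first present at D2 were comp254454, comp279056, comp284969, comp292315, comp293073, comp293325_41, comp293924 and comp293992. Between D1 and D2 the rank of comp293992 went from 21 to 3 of 43, that of comp292315 from 17 to 5 and that of comp293073 from 41 to 9. None of these steps passed: of the 21 tested unannotated probes 0 were called for D2 vs D1 (edgeR), as were 0% of all 38 tested target probes. There were 6 with an unadjusted p under 0.05 and a lowest adjusted p of 0.0756, for comp293073. The probes first present at D2.5 were comp231524, comp252428, comp274039, comp286889, comp290695, comp290885, comp293073_4, comp293931 and comp3124724, and comp293605 and comp30676 followed at D3.

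By D3 nearly all tested unannotated transcripts stood above their D1 level. Of the 21 tested, 19 rose from D1 to D3 (90.5%), against 76.3% of all 38 tested target probes and 10 of 17 annotated ones (58.8%), in edgeR's quasi-likelihood test with Benjamini-Hochberg adjustment over the 38. None fell, against 2.63% of all tested. The median log2 fold change was 5.03 over the 21 probes, 3.21 over the 17 annotated and 4.36 over all 38. The probes that did not pass were comp279056 (log2 fold change 1.97, SE 1.30, adjusted p = 0.152 in edgeR) and comp289786. Of the 19, 18 were below background in every D1 lane, so their fitted fold changes are not bounds. Testing required 3 embryo lanes above background, so these 18 entered through later stages, and the filter itself favours rises from D1. With no filter on low counts, 19 of the 24 unannotated probes rose (edgeR). Against the mean D1 background of 22.9 scaled counts, 17 of the 19 D3 means gave lower bounds, from 1.70-fold to 63.9-fold with a median of 5.26-fold. For 1 more, comp293605, the D3 mean of 21.9 was under that background and no fold is given.

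The largest of these rises was that of comp293992. Its scaled counts were 5.99, 6.41 and 2.47 at D1 and 360, 272 and 3754 at D3, at least 63.9-fold higher by the stage mean (edgeR log2 fold change 8.21, SE 2.14, adjusted p = 0.00079). Without D3 replicate 3 that bound was 13.8-fold. At D2.5 the lanes had 148, 24.5 and 1157, and at D4 88.2 in the numbered lane, 1587 in lane a and 533 in lane b. Every lane from D2.5 on lay above every D1 lane. comp292315 followed, with 15.6, 2.14 and 2.47 at D1 and 474, 277 and 2283 at D3, at least 44.2-fold higher by the stage mean (edgeR log2 fold change 7.19, SE 1.95, adjusted p = 0.00098). Its bound without D3 replicate 3 was 16.4-fold. These 2 probes ranked first and second of the 43 at D3.

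comp293924 and comp293931 had ranks 6 and 7 of the 43 at D3, after comp292169 at rank 5. comp293924 had 2.40, 2.14 and 4.12 at D1 and 156, 145 and 920 at D3, at least 17.8-fold higher (edgeR log2 fold change 7.04, SE 1.62, adjusted p = 0.00046). comp293931 had 5.99, 4.27 and 8.24 at D1 and 152, 49.3 and 824 at D3, at least 14.9-fold higher (edgeR log2 fold change 5.74, SE 1.49, adjusted p = 0.00079). For both, the D1 and D3 lanes did not overlap. These bounds are of the stage mean, and without D3 replicate 3 they were 6.6-fold for comp293924 and 4.4-fold for comp293931. comp293073, with 1.20, 2.14 and 0.824 at D1 and 41.6, 47.4 and 295 at D3, was at least 5.59-fold higher by the stage mean (edgeR log2 fold change 6.51, SE 1.53, adjusted p = 0.00046). Its bound without D3 replicate 3 was 1.945-fold. Bounds for comp254454, comp293073_4 and comp231524 were 5.36-fold, 5.32-fold and 4.88-fold, with fitted log2 fold changes of 6.07, 5.94 and 5.93. Without D3 replicate 3 these bounds were 1.574-fold, 1.505-fold and 1.422-fold. comp292169 is the 1 probe among the 19 with a measured D1 level in all lanes, and its D3 mean of 526 ± 641 scaled counts was 11.5-fold above the D1 mean of 45.8 ± 11.03 (SD, n = 3; edgeR log2 fold change 3.52, SE 1.48, adjusted p = 0.0248).

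**Figure D2:**
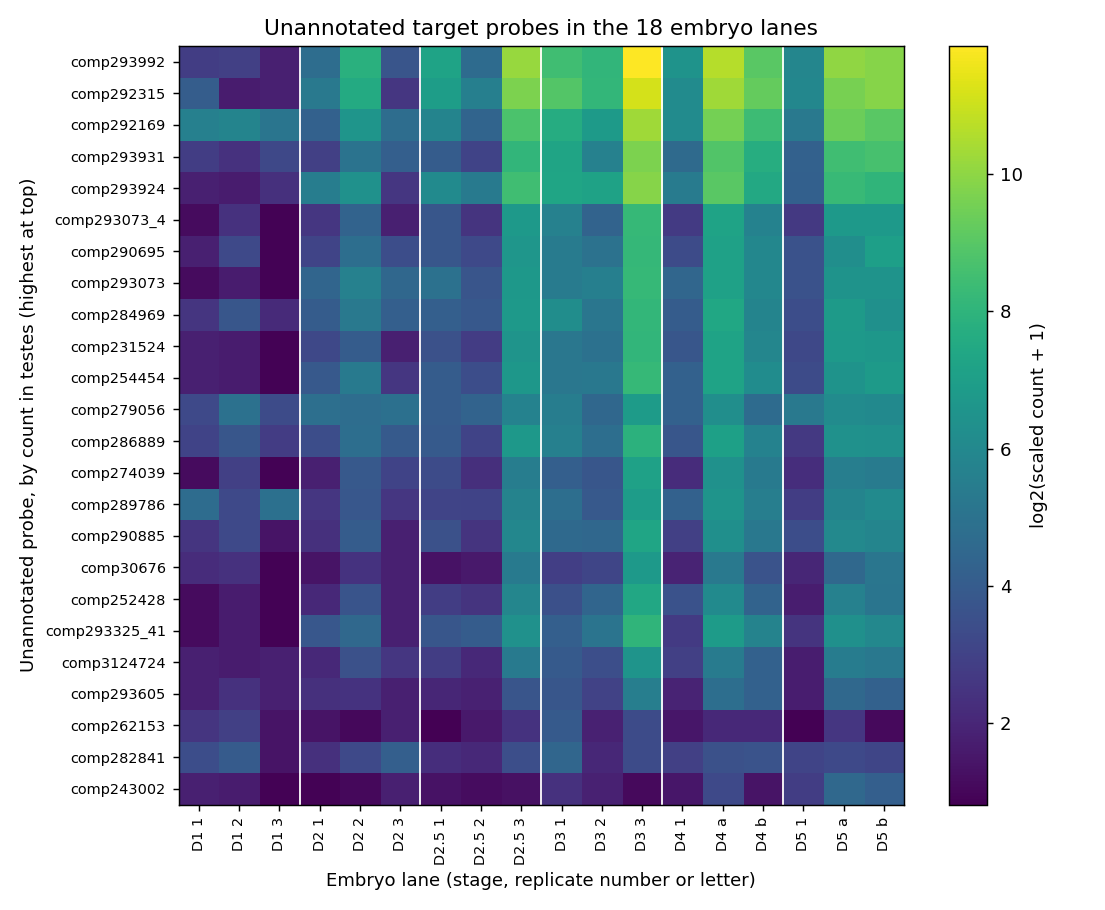
log2(scaled count + 1) of the 24 unannotated probes (rows, ordered by count in testes) in the 18 embryo lanes (columns, white lines between stages). comp293992 and comp292315 at the top are brightest in D3 replicate 3, comp292169 is visible in the D1 lanes, and the lowest 3 rows stay dark through most lanes.

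The size of the D3 values depended on 1 lane. Without D3 replicate 3, 12 of the 18 probes below background at D1 gave a lower bound, from 1.08-fold to 16.4-fold with a median of 1.79-fold. That of comp293992 was then 13.8-fold and that of comp292315 16.4-fold, and for 6 probes the D3 mean was under the D1 background. With all lanes, 23 of the 24 unannotated probes had their highest stage mean at D3 and 1, comp243002, at D5. Without D3 replicate 3 D3 was the highest stage of 2 probes, D4 of 13 and D5 of 9, and 12 of 21 probes in place of 19 rose from D1 to D3 (edgeR). In that fit the median log2 fold change was 3.30 over the 21 and 2.76 over all tested target probes. The share of all tested probes that rose was not counted there. comp289786 then had a log2 fold change of −0.06.

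From D1 to D5, 17 of the 21 rose (81.0%), against 63.2% of all tested target probes and 7 of 17 annotated ones (41.2%) in edgeR, and 0 fell, against 2.63%. All 17 were among the 19 called at D3, and both comparisons share the D1 lanes and the filter. The other 4 of the 21 were comp279056, comp286889, comp289786 and comp293605. With no filter on low counts, 18 of the 24 unannotated probes rose (edgeR). The median log2 fold change was then 3.50 over the 24 and 3.18 over all target probes. How many annotated probes rose in that fit was not counted. Of the 17, 16 were below background in every D1 lane, so their fitted fold changes are not bounds. Against the mean D1 background, 15 D5 means gave lower bounds, from 1.20-fold to 29.4-fold with a median of 3.10-fold. The highest fold changes among probes above background in every D5 lane were those of comp293992 (edgeR log2 fold change 7.09, bound 29.4-fold), comp292315 (6.40, bound 25.6-fold), comp293924 (5.98, bound 8.56-fold), comp293931 (5.33, bound 11.3-fold) and comp292169 (3.18, adjusted p = 0.0451). Only comp292169 of these had a measured D1 level, and its D5 mean was 9.05-fold higher. The median log2 fold change was 4.31 over the 21 probes, 2.50 over the annotated and 3.50 over all. Of the 17, 5 were above background in all 3 D5 lanes. The numbered D5 lane had 448 unannotated counts, against 3486 and 3759 in lanes a and b, with a background of 19.9 raw counts against 17.9 and 14.3. Without D1 replicate 1, D1 replicate 3 or D5 lane a the number of rises was 10, 9 and 10, and the 14 embryo lanes with a replicate number gave 0. In that last fit D5 is 1 lane, the one with few unannotated counts, which is assumed to vary like the lanes of the other stages.

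**Figure D3:**
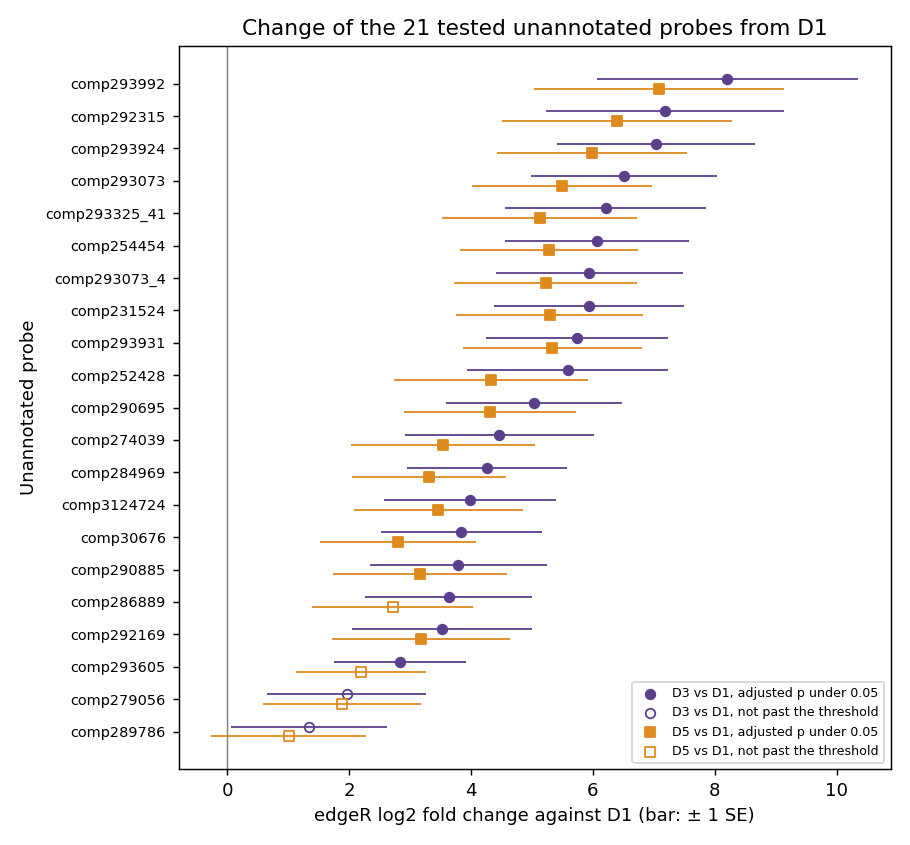
edgeR log2 fold changes against D1 (x axis, bars ± 1 SE) of the 21 tested unannotated probes (y axis) at D3 (circles) and D5 (squares), filled where the adjusted p was under 0.05. The D3 value exceeds the D5 value for each probe, and the 2 probes with open D3 circles are comp279056 and comp289786.

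Most of the median change was shared with the panel as a whole. Lanes were also scaled by the tested probes themselves, with edgeR's TMM or DESeq2's size factors. The median D3 vs D1 log2 fold change of all 38 probes was then −0.17 and −0.048 in place of 4.36, by construction. Over the 21 unannotated probes the median was 0.49 and 0.62 at D3, and 0.25 and 0.52 at D5. Relative to that panel level, 11 of the 21 unannotated probes had positive values and 10 negative values under both scalings, at D3 and at D5. comp293992 (3.20 and 3.32), comp292315 (2.49 and 2.56), comp293924 (2.36 and 2.41) and comp293073 (2.03 and 2.11) stayed higher at D3 past the threshold under both. comp289786 (−3.51 and −3.48), comp279056 (−2.22 and −2.11), comp293605 (−1.70 and −1.61), comp292169 (−1.30 and −1.21) and comp286889 (−0.99 and −0.89) were lower past it in edgeR under both. The 21 are among the 38 probes that set these scalings, so values on both sides of 0 are partly built in. The values give only which probes lay above or below the panel level. The calls were 4 higher and 5 lower at D3 and 2 higher and 3 lower at D5 with TMM. With DESeq2's size factors they were 5 and 5 at D3, and 6 and 3 at D5. Calls among the annotated probes were not counted under these scalings.

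Over all 6 stages at once, 13 of the 21 unannotated probes passed the edgeR test (61.9%), against 52.6% of all tested target probes. The 13 were comp231524, comp252428, comp254454, comp284969, comp290695, comp292315, comp293073, comp293073_4, comp293325_41, comp293924, comp293931, comp293992 and comp30676, with adjusted p between 0.0084 and 0.0418. All of them were among the 17 called for D5 vs D1. With no filter on low counts, 15 of the 24 unannotated probes passed, and the share over all target probes was not counted. In the filtered test the number was 0 without D1 replicate 1 or D1 replicate 3, and 3 without D1 replicate 2.

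Between successive stages no unannotated probe passed in edgeR, as with 0% of all tested target probes for each step, and 0 had an unadjusted p under 0.05 at any step after D2. DESeq2 and limma, run for D3 vs D2.5, called 0 as well. Median log2 fold changes of the 21 over the 5 steps in order were 1.79, 1.55, 1.55, −0.70 and −0.13. D4 vs D3 also crosses from 1 run to the next. For D3 vs D2.5 the deviations of same-numbered lanes had correlations of 0.173, 0.502 and 0.794. Lanes of different numbers were not compared, and the labels do not say that a number marks a shared batch. A replicate block on those 6 lanes alone was fitted, a choice made after seeing the data. In that fit 21 of 21 unannotated probes rose (edgeR, median log2 fold change 1.58). So did 14 of 17 annotated ones and 92.1% of all 38 tested (median 1.51). For the unannotated probes that fit gave 21 rises with EF1A_A alone (92.1% of all tested) or HCFC-1 alone (86.8%), 1 with positive controls only (2.63%) and 0 with the sum of the target counts (0%).

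The unannotated probes took a growing part of the panel's counts from D1 to D3, with lower means at D4 and D5. Their share of all target counts, which needs no scaling between lanes, was 8.30%, 19.2% and 5.91% in the D1 lanes, with a mean of 11.2% ± 7.11 (SD, n = 3). It was 15.1%, 30.5% and 15.3% at D2 and 58.5%, 41.8% and 70.6% at D3, where the mean was 57.0% ± 14.5. The D1 and D3 lanes did not overlap. The mean was 36.1% at D2.5 and 52.8% at D4. The D4 lanes had 29.4% (numbered), 65.8% (lane a) and 63.1% (lane b). At D5 the share was 14.1% in the numbered lane, inside the D1 range, and 58.2% and 59.8% in lanes a and b, with a mean of 44.1% ± 25.9. In testes it was 78.2% in each of the 3 lanes. The exact 95% binomial interval of a lane was at its widest 15.9% to 23.0%, for D1 replicate 2, and covers counting error only.

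**Figure D4:**
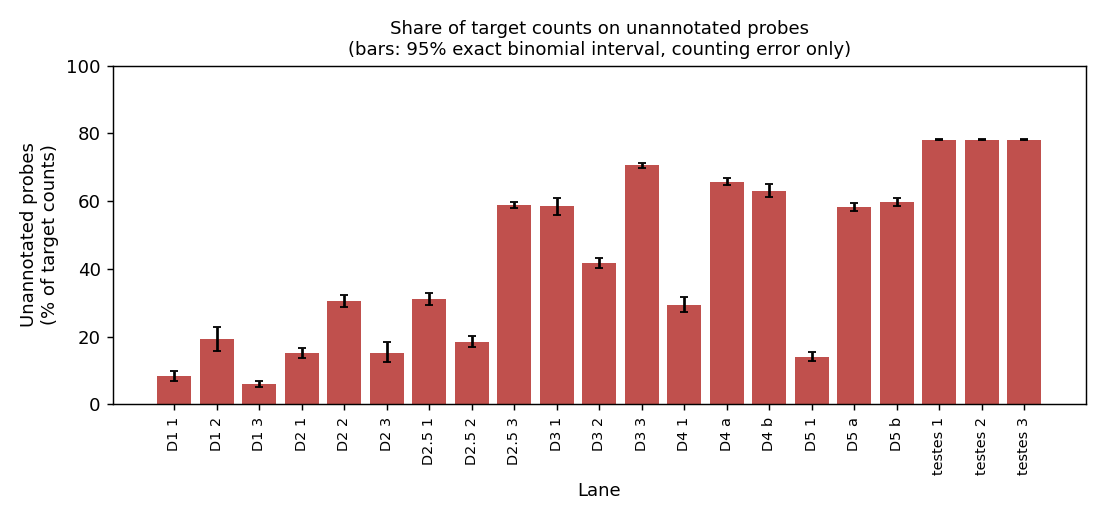
Share of target counts on the 24 unannotated probes (y axis, percent) in each lane (x axis), with exact 95% binomial intervals for counting error. The D1 lanes lie at or under 19.2%, the D3 lanes at or above 41.8%, and the testes lanes at 78.2%.

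That share depended on 1 annotated probe at every embryo stage. The probe comp293586 is named aspartate aminotransferase, which moves amino groups between amino acids. It had 1088, 314 and 1735 of the 1536, 407 and 2243 annotated counts in the D1 lanes. In the numbered D5 lane, whose share lay inside the D1 range, it had 2347 of the 2724 annotated counts. Without it the unannotated share was 32.2%, 47.1%, 62.1% and 72.4% over the first 4 stages. It was 68.8% and 67.6% over the last pair and 78.3% in testes. With the mean of the negative controls subtracted, the share was 5.13% ± 2.60 at D1, 15.2% ± 12.4 at D2 (SD, n = 3) and had a mean of 57.0% at D3. The order of the first 4 stages was the same in each case. Mean log2(scaled count + 1) of all 24 unannotated probes minus that of all 19 annotated was negative in each D1 and D2 lane, between −1.46 and −0.29. It was positive in each D3 lane, between 0.09 and 0.40. It was again negative in the numbered D4 and D5 lanes, at −0.32 and −0.14.

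Within the 24, a small set of probes held most counts. The 5 with the highest counts in testes were comp293992, comp292315, comp292169, comp293931 and comp293924, and they summed to 71.9% of the unannotated counts there. At D1 these 5 held 41.6% ± 6.70 of the unannotated counts (SD, n = 3), at D2 47.0% ± 17.1 and at D3 71.5% ± 2.29. They were also the 5 highest unannotated probes at D2.5, D3, D4 and D5, while at D2 comp293073 and not comp293931 was among the first 5. From D2 on the rank among the 43 was between 1 and 3 for comp293992, between 2 and 5 for comp292315 and between 4 and 7 for comp292169.

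Testes held far more of nearly all these transcripts than any embryo stage. After scaling by HCFC-1 alone, 21 of the 24 unannotated probes were at least 4-fold above their highest embryo stage mean, as were 17 of 19 annotated probes and 88.4% of all 43 target probes. With testes as 1 biological sample there is no test, and the level scale rests on HCFC-1. That probe had 167 to 177 raw counts in the testes lanes, not far above their backgrounds of 127 to 136, so the folds are uncertain in size. Scaled by the sum of target counts, 0 of the 24 passed that rule, since the panel itself then sets the level. Over the 23 probes with a fold or a bound the median was 19.3-fold and the range 3.67-fold to 28.9-fold. The largest were comp293073_4 at 28.9-fold, with 13961, 13256 and 13322 raw counts in the 3 testes lanes, and comp279056 at 28.4-fold. The smallest among probes measured in embryos was comp293325_41 at 8.39-fold.

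The highest raw counts in testes were those of comp293992, between 85665 and 90297, and of comp292315, between 76120 and 80370. comp292169 had rank 3, between 41668 and 43593. Rank 4 was held by an annotated probe, comp285297_12, named for a baculoviral IAP repeat protein, a family that restrains cell death. Over the 24 probes the 3 technical lanes of testes agreed within sampling noise, the chi-square divided by its degrees of freedom being 0.901 to 1.33.

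The remaining 3 unannotated probes had low counts and were not tested. comp262153 was above background in no embryo lane, with raw counts between 1 and 8, and had 204, 212 and 196 in testes, at least 3.79-fold higher. comp282841 exceeded background in 1 lane, D2.5 replicate 3, with 14 raw counts, and had 214, 172 and 205 in testes, at least 3.67-fold above D3. comp243002 was the unannotated probe under the background of testes, with 69, 65 and 56 raw counts against backgrounds of 134, 127 and 136. In embryos it exceeded background in D5 lanes a and b, by a narrow margin, with 18 and 15 raw counts against 17.9 and 14.3, and had at most 8 in every other lane. Because it exceeded background in 2 embryo lanes, it was left out of the main test. With no filter on low counts it passed for D5 vs D1 (edgeR log2 fold change 3.04, SE 0.86, adjusted p = 0.0030), but its D5 values of 5.98, 22.2 and 16.7 scaled counts were under the mean D1 background of 22.9, so no fold is given. The other 2 did not pass there (adjusted p = 0.343 and 0.953 in edgeR).

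The pattern of counts over the 24 came closer to that of testes from D1 to D3, and the D3, D4 and D5 lanes overlapped. Over the 24 probes, Pearson's r between log2(raw count + 1) in a lane and in testes was 0.09 to 0.31 in the D1 lanes, 0.34 to 0.88 at D2, 0.76 to 0.96 at D2.5 and 0.82 to 0.98 at D3. It was 0.80 to 0.95 at D4 and 0.68 to 0.92 at D5. These are descriptions across probes of 1 panel, which share each probe's hybridisation efficiency and the depth of the lane, and lanes with few counts hold mostly background. D3 replicate 3, the lane with the most counts, had the highest r. By Spearman's rank correlation D5 lane b was the highest (0.961). The D3 lanes had 0.913, 0.873 and 0.938 by that measure, and D4 lane a had 0.944. For the 19 annotated probes r was −0.51 to −0.43 at D1 and 0.16 to 0.49 at D3. Without aspartate aminotransferase and the synaptonemal complex probe comp292635_9 it was −0.27 to 0.17 at D1 and 0.71 to 0.80 at D3.

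In proportion, the D3 embryo mean was a similar small part of the testes level for most probes. On the HCFC-1 scale it was 5.19% of testes at the median of the 23 probes above background in testes, between 3.46% for comp293073_4 and 16.4% for comp282841, which was below background at D3. Among the probes present at D3 the highest was comp293325_41, at 11.9%, and comp293992 was at 6.55%. These means carry the weight of D3 replicate 3, and the testes level rests on HCFC-1, which was not far above background there.

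**Figure D5:**
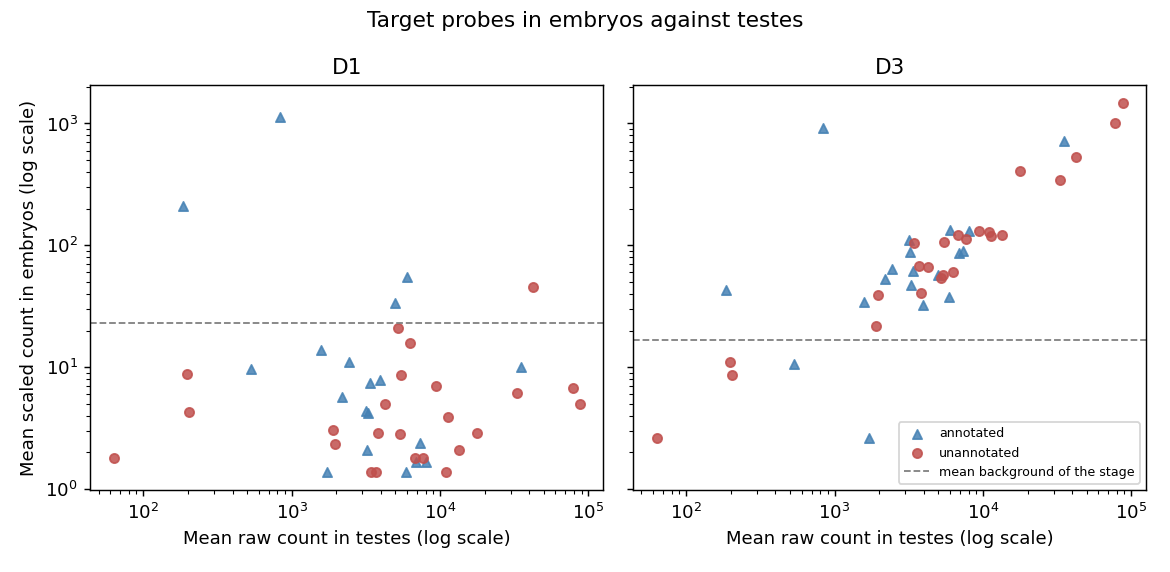
Mean scaled count in embryos at D1 (left) and D3 (right; y axis, log scale) against mean raw count in testes (x axis, log scale) for 24 unannotated (red circles) and 19 annotated (blue triangles) target probes, with the mean stage background dashed. At D1 all but 1 unannotated point lie below the dashed line. At D3 the points above it tend to rise with the testes count but not in strict order. The annotated comp293586 has rank 3 at D3 and 38 in testes.

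The unannotated probes went up and down together across embryo lanes. Over the 18 lanes the median Pearson correlation of log2(scaled count + 1) between pairs of the 21 was 0.926, between 0.547 and 0.985 over 210 pairs. It was 0.742 over 136 annotated pairs and 0.871 between the classes. The lanes share their scaling and stage, so these values are a description. The closest pairs were comp254454 with comp293992 (0.985), comp231524 with comp254454 (0.984), comp231524 with comp293992 (0.982) and comp286889 with comp3124724 (0.980). The lowest 4 pairs all held comp289786, with comp293073 and comp279056 (0.547 each), comp293924 (0.658) and comp293325_41 (0.680).

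The correlations were much lower once the mean level of each lane was taken off. After the lane mean over all 43 target probes was taken off, the median fell to 0.224 for unannotated pairs, −0.06 for annotated pairs and −0.01 between the classes. Removing a mean that includes these probes lowers their correlations and pulls some pairs below 0 by construction. What set the level of a lane was not tested. The highest pairs were then comp292315 with comp293992 (0.929), comp231524 with comp293992 (0.927), comp231524 with comp292315 (0.921) and comp292315 with comp293924 (0.892). The lowest were comp289786 with comp293073 (−0.860), comp293605 with comp293992 (−0.785), comp279056 with comp292315 (−0.754) and comp254454 with comp293605 (−0.753). comp289786, comp279056 and comp293605 were among the probes lower than the panel at D3, and comp293992, comp292315 and comp293073 among those higher. Both results use the same lanes and a level set by the panel, so this overlap adds no separate evidence.

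Identifiers of 9 target probes share a stem, the part of the name before the sign _, on 4 of 38 stems, and 3 of the 9 are unannotated. What a shared stem means is not given in the table. comp293073 and comp293073_4 form 1 such pair, both unannotated, with raw counts of 1 or 2 in the D1 lanes. At D2 comp293073 was the higher of the 2 in every lane, with 25, 46 and 9 raw counts against 6, 18 and 1, but both exceeded background in replicate 2 alone, where the log2 ratio was 1.35. At D3 the counts were 20, 75 and 262 against 24, 30 and 263, a log2 ratio of 0.35 ± 0.85. In testes comp293073_4 was the higher in all 3 lanes, with a log2 ratio of −0.30 ± 0.03 between technical replicates. Over the 10 embryo lanes where both exceeded background the ratio was between −0.29 and 1.35, with comp293073 higher in 4 and comp293073_4 in 6.

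The other pair joins the unannotated comp293325_41 to comp293325, which is annotated as neurofascin, a cell adhesion protein of nerve fibres in jawed vertebrates. At D2 comp293325_41 had 16, 21 and 1 raw counts against 16, 15 and 1, with both under background in replicate 3. Over the 10 embryo lanes where both exceeded background, the log2 ratio of comp293325 to comp293325_41 was between −0.63 and 0.70 with a median of −0.35. comp293325_41 had the higher count in 6 of these lanes and comp293325 in 1, and 3 were equal. In testes comp293325 had 7517, 7541 and 7043 raw counts against 3506, 3469 and 3384, a log2 ratio of 1.09 ± 0.03 between technical replicates. All 10 embryo lanes lay below the testes ratio, a difference that was not tested. The rule leaves out lanes where either probe was under background. In D2.5 replicate 2 that was comp293325 alone (12 against 24 raw counts, log2 ratio −1), and in D3 replicate 1 it was comp293325_41 alone. Of the embryo lanes left out, D3 replicate 1 (22 against 8 raw counts, log2 ratio 1.46) and the numbered D4 lane (1.66, both under background) lay above the testes ratio, and the rest below it.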

How the data were processed

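Counts of 63 probes on the nCounter were used as the authors deposited them, as raw counts per lane, per the file headers. The authors also deposited normalized signal values, which entered as an alternative. All of 833 such values (100%) were recovered within 2% by a recipe inferred from the values, and the authors' software is not given in the sources used here. Members and gene lists were chosen with earlier results of these data known.

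Column names of 17 lanes give a replicate number, and 4 (2 of D4, 2 of D5) do not. Tested were the target probes that exceeded lane background in 3 or more of 18 embryo lanes, 21 unannotated and 17 annotated. The scale factor of an embryo lane was the geometric mean of EF1A_A and HCFC-1, and HCFC-1 alone served for testes, these being the reference-class probes that no lane compared had under background. The lanes were fitted with edgeR 4.0.16 (R 4.3.3, quasi-likelihood, robust, stage as the factor, two-sided, threshold 0.05), with limma 3.58.1 and DESeq2 1.42.0 as alternatives. An SE is the log2 fold change over the square root of F. A fold against a stage below background in every lane uses its mean background and is a lower bound. The labels call the embryo samples biological replicates.

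Named are the 8 largest called fold changes at D3 and at D5 among probes above background in every lane of that stage, all-stage calls, the 5 highest counts per stage and in testes, probes present at D1, probes never above background in embryos or in testes, shared stems, the 4 highest and 4 lowest correlations, and the extreme testes ratios. Same-numbered lanes were checked as pairs by correlating deviations from stage means. Among the first run's 6 pairs of stages, all correlations exceeded 0.1 for D2.5 and D3 only.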

Additional observations from a re-analysis of the deposited data

How the results depend on the processing

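The number of unannotated probes called for D5 vs D1 was 17, and with TMM it was 5, with DESeq2's size factors 9, with limma on scaled counts 10, and 0 with the replicate block on the numbered lanes or on those lanes without it, where D5 is 1 lane. Leaving out 1 lane gave 9 to 19. For D3 vs D1 it was 19, and under TMM 9, under DESeq2's size factors 10, and 12 to 19 with 1 lane left out. It was 12 without D2.5 replicate 3 and D3 replicate 3 together. For D3 vs D2.5 it was 0, with 0 to 2 when 1 lane was left out and 2 without D2.5 replicate 3. The replicate block on those 6 lanes gave 21, and 21, 21, 1 and 0 with EF1A_A alone, HCFC-1 alone, positive controls only and the sum. Over all stages it was 13, and 3 with TMM, 5 with DESeq2's size factors, 0 with the negative control mean subtracted, 6 with limma, 3 with the block on the numbered lanes, and 0 to 19 with 1 lane left out. The first-run fit, the blocks on 6 lanes and the joint omission were chosen after seeing the data. Apart from the blocks on 6 lanes, shares over all tested probes were counted for the main fits only.

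Probes above background numbered 1, 0, 8, 5 and 6 at D1, D2, D2.5, D4 and D5 when all 3 lanes were required, and 6 at D1 and 17 at D2 against the negative control mean. The 21 probes past the testes rule became 0 with the sum of target counts. The share without aspartate aminotransferase was 32.2%, 47.1%, 62.1% and 72.4% at D1, D2, D2.5 and D3. With the negative control mean subtracted it was 5.13% at D1 and 15.2% at D2. In testes it was 78.3% with the negative control mean subtracted, 73.0% without the highest unannotated probe and 78.3% without aspartate aminotransferase. The median correlation was 0.224 with the lane mean taken off.

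Log2 fold changes turned negative as follows, D3 vs D1 first and D5 vs D1 second. With TMM they were −0.20 and −0.34 for comp274039, −2.22 and −1.05 for comp279056, −0.15 and −0.61 for comp284969, −0.99 and −1.43 for comp286889, −3.51 and −3.29 for comp289786, −0.73 and −0.59 for comp290885, −1.30 and −1.06 for comp292169, −1.70 and −1.83 for comp293605, −1.11 and −1.16 for comp30676, and −0.83 and −0.77 for comp3124724. With DESeq2's size factors they were −0.057 and −0.032 for comp274039, −2.11 and −0.76 for comp279056, −0.039 and −0.32 for comp284969, −0.89 and −1.13 for comp286889, −3.48 and −3.06 for comp289786, −0.62 and −0.30 for comp290885, −1.21 and −0.80 for comp292169, −1.61 and −1.56 for comp293605, −0.96 and −0.84 for comp30676, and −0.74 and −0.50 for comp3124724. With the sum of target counts, comp289786 had −0.88 and −0.87 and comp279056 −0.20 at D3. On the numbered lanes, D5 values were −0.67 for comp286889, −1.80 for comp289786, −0.29 for comp292169, −0.38 for comp293605 and −0.068 for comp3124724. With the replicate block there they were −0.12 for comp286889, −1.31 for comp289786 and −0.016 for comp293605. comp289786 at D3 lay between −0.074 and 1.81 with lanes left out, at −0.064 without D3 replicate 3 and at −0.074 without D2.5 replicate 3 and D3 replicate 3. Of the single-probe values, 383 at D3 and 295 at D5 kept direction and side of the threshold, 54 and 103 lost the threshold, and 1 and 14 gained it. TMM and DESeq2 derive their factors from the probes under test. For the other changes the cause was not tested. Low counts at D1, with a mean background of 22.9 scaled counts, limit the folds to bounds.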
